A study of Solanum lycopersicum with 27 samples.

Results

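The fruit transcriptome of the tomato mutant dml2-3 at 34 days post anthesis (dpa) was set against that of wild type (WT) fruit of the same age. The comparison was chosen by genotype and age alone, and comprised 6 RNA-seq libraries, 3 of dml2-3 and 3 of WT, of the 27 libraries of the series. All plants were Solanum lycopersicum of the cultivar Ailsa Craig, grown without treatment, and total RNA of fruits was sequenced. The labels give 34 dpa as the breaker stage for all genotypes, mutants included, so the groups are matched by fruit age. Further groups of 3 libraries each served for comparison. These were the double mutant rin/tdr4-1, rin-1, tdr4-1 and nor-1 at 34 dpa, and dml2-3, rin/tdr4-1 and WT at 25 dpa. The labels do not say how the dml2-3 allele was made or whether it stands for 1 line. Nor do they tie replicates to separate plants, and p-values therefore cover the spread between libraries and no more.

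DML2 is a DNA glycosylase of the DEMETER-like family, which cuts 5-methylcytosine out of DNA so that unmethylated cytosine can be put back. In tomato it is the family member that is active as fruit ripen, and fruit that lack it are known to ripen poorly. Breaker fruit show the first colour of ripening. In normal fruit this stage comes with ethylene synthesis, the loss of chlorophyll, the build-up of carotenoids and the loosening of cell walls. All of the other mutated genes encode known ripening regulators, NOR a NAC protein and RIN and TDR4 MADS-box proteins.

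The table held 34075 genes under Solyc identifiers, each with 1 FPKM value per library (fragments relative to gene length and library total). The identifiers number genes along each chromosome. The files do not pair them with gene names, so genes are given by identifier and chromosome, with no function, and neither the DML2 transcript nor markers of fruit tissues could be checked. The 3 dml2-3 libraries correlated with each other at r of 0.989 to 0.992 across genes, and the 3 WT libraries at 0.985 to 0.990. The median gene varied by an SD of 0.0807 on the log2 scale in dml2-3 and of 0.137 in WT. In dml2-3 at 25 dpa, 1 library, replicate 3, stood apart, with r down to 0.916. It enters the comparisons at 25 dpa and, through the common spread, every p-value. The depth of the libraries is unknown, and the number of replicates limits the precision.

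Most genes had another level in dml2-3 than in WT fruit at 34 dpa. Of 18906 genes tested, 14175 (75.0%) were called different from WT by limma at an adjusted p under 0.05, 10778 of them (57.0%) higher in dml2-3 and 3397 (18.0%) lower. This split depended on the scaling between libraries. The median gene was higher in dml2-3 by 0.42 on the log2 scale as deposited, and by 0.025 with size factors, under which 7188 genes were higher and 6568 lower. Quantile scaling turned the balance round, with 6460 higher and 7138 lower. The genes described from here on as higher or lower were called at 2-fold or more in the same direction under both scalings. They numbered 3254 higher (17.2% of the genes tested) and 1275 lower (6.74%), against 3254 higher and 2257 lower with size factors alone. In bulk RNA, fewer cells of a type and less RNA per cell cannot be told apart.

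**Figure D1:**
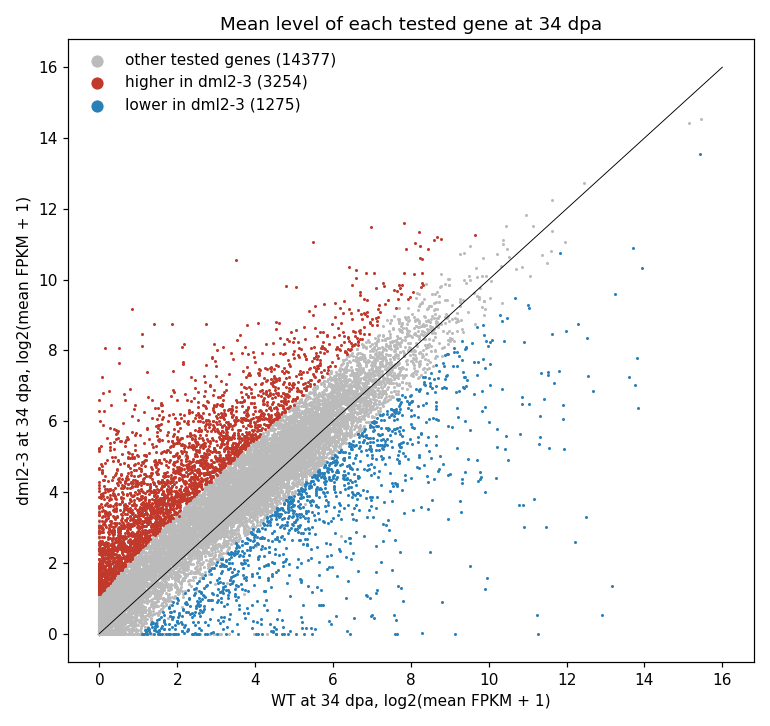
Each point is 1 tested gene, with its mean level in the 3 dml2-3 libraries on the vertical axis and in the 3 WT libraries on the horizontal axis, both as log2(FPKM + 1). The 3254 higher genes lie mostly at low WT levels, while the 1275 lower genes reach the highest WT levels.

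Rises were more numerous and falls reached further. On the scale as deposited, the lower genes had a median log2 difference of -1.80, and their 10th percentile was -4.25. The higher genes had a median of 2.07, and their 90th percentile was 3.56. The median gene was itself higher in dml2-3 by 0.42 on that scale, so the medians of the lower and higher genes cannot be compared in size. The lower genes had a median of 46.6 FPKM in WT, and the higher genes one of 16.6 FPKM in dml2-3. On the log2(FPKM + 1) scale such a level caps the size of a difference. The further reach of falls was therefore not separated from level. A change of 4-fold or more under both scalings was found for 525 lower and 1193 higher genes, of 16-fold or more for 150 and 129, and of 64-fold or more for 37 and 14. Among them, 47 lower genes were listed at 0 in all dml2-3 libraries and 100 higher genes in all WT libraries; without these the medians were -1.79 and 2.08.

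On the log2(FPKM + 1) scale, the widest fall of all tested genes belonged to Solyc10g080210.2 on chromosome 10. With a pseudocount of 0.1, Solyc10g050990.2, which was listed at 0 in dml2-3 and is described further on, came ahead of it. Solyc10g080210.2 had 0.51, 0.39 and 0.38 FPKM in the dml2-3 libraries, against 7546, 8421 and 7300 FPKM in the WT libraries. The mutant thus had next to none of a transcript that made up 0.767% of the FPKM of WT fruit. The level in dml2-3 was also below that of every other mutant at 34 dpa. These ranged from 13.1 ± 0.788 FPKM in rin/tdr4-1 to 4695 ± 220 FPKM in tdr4-1. The log2 difference was -12.41 (SE 0.55, limma adjusted p = 7.87e-15). WT fruit at 25 dpa had 2.53 ± 0.502 FPKM (mean ± SD, n = 3, as for every FPKM given so below), and the older mutant lay below that level as well (log2 difference -1.30, limma adjusted p = 0.0454, or 0.0582 with size factors and 2.88e-11 without replicate 3 of dml2-3 at 25 dpa, a library that enters this test only through the common spread).

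Solyc01g081250.3 on chromosome 1 came next on the log2(FPKM + 1) scale. It had 1.70, 1.70 and 1.22 FPKM in dml2-3 and 9430, 9710 and 8342 FPKM in WT. The log2 difference came to -11.82 with an SE of 0.40 (limma adjusted p = 1.01e-16). Unlike the first gene, it was already well expressed in WT at 25 dpa, at 328 ± 43.3 FPKM, and the mutant at 34 dpa lay below that level too, by -7.02 on the log2 scale (limma adjusted p = 3.72e-12). It was also low in rin-1, at 2.82 ± 0.456 FPKM, and in nor-1, at 0.583 ± 0.342 FPKM. The differences of dml2-3 from them, -0.59 and 0.70 on the log2 scale, were not called with all libraries in the fit (limma adjusted p = 0.211 and 0.124) but passed without replicate 3 of dml2-3 at 25 dpa (limma adjusted p = 0.000299 and 3.54e-05). In tdr4-1 it stood at 15091 ± 197 FPKM.

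The widest rise on the log2(FPKM + 1) scale was that of Solyc07g064600.3 on chromosome 7. It had 582, 576 and 566 FPKM in dml2-3, against 0.71, 0.61 and 1.00 FPKM in WT. The log2 difference came to 8.35 with an SE of 0.18 (limma adjusted p = 3.97e-20). WT fruit had little of this transcript at 25 dpa either, where it stood at 4.24 ± 0.552 FPKM, whereas dml2-3 at 25 dpa had it at 190, 197 and 397 FPKM. The other mutants lay between 5.87 ± 0.341 FPKM in rin-1 and 142 ± 15.9 FPKM in nor-1, all below dml2-3.

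Solyc01g091170.3 on chromosome 1 followed, with 263, 272 and 267 FPKM in dml2-3 and 0.12, 0.09 and 0.11 FPKM in WT. The log2 difference came to 7.92 with an SE of 0.26 (limma adjusted p = 5.99e-17). In this case WT fruit at 25 dpa did express the gene, at 37.1 ± 4.37 FPKM, and the mutant at 34 dpa lay above that level by 2.82 on the log2 scale (limma adjusted p = 8.37e-09). The other mutants at 34 dpa lay between 0.57 ± 0.01 FPKM in tdr4-1 and 25.9 ± 1.15 FPKM in rin/tdr4-1, above WT of that age and below dml2-3. With a pseudocount of 0.1 this gene came ahead of Solyc07g064600.3, at 10.34 against 9.39 on the log2 scale. Values on the log2(FPKM + 1) scale understate the difference of every gene that is below 1 FPKM in 1 of the groups.

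**Figure D2:**
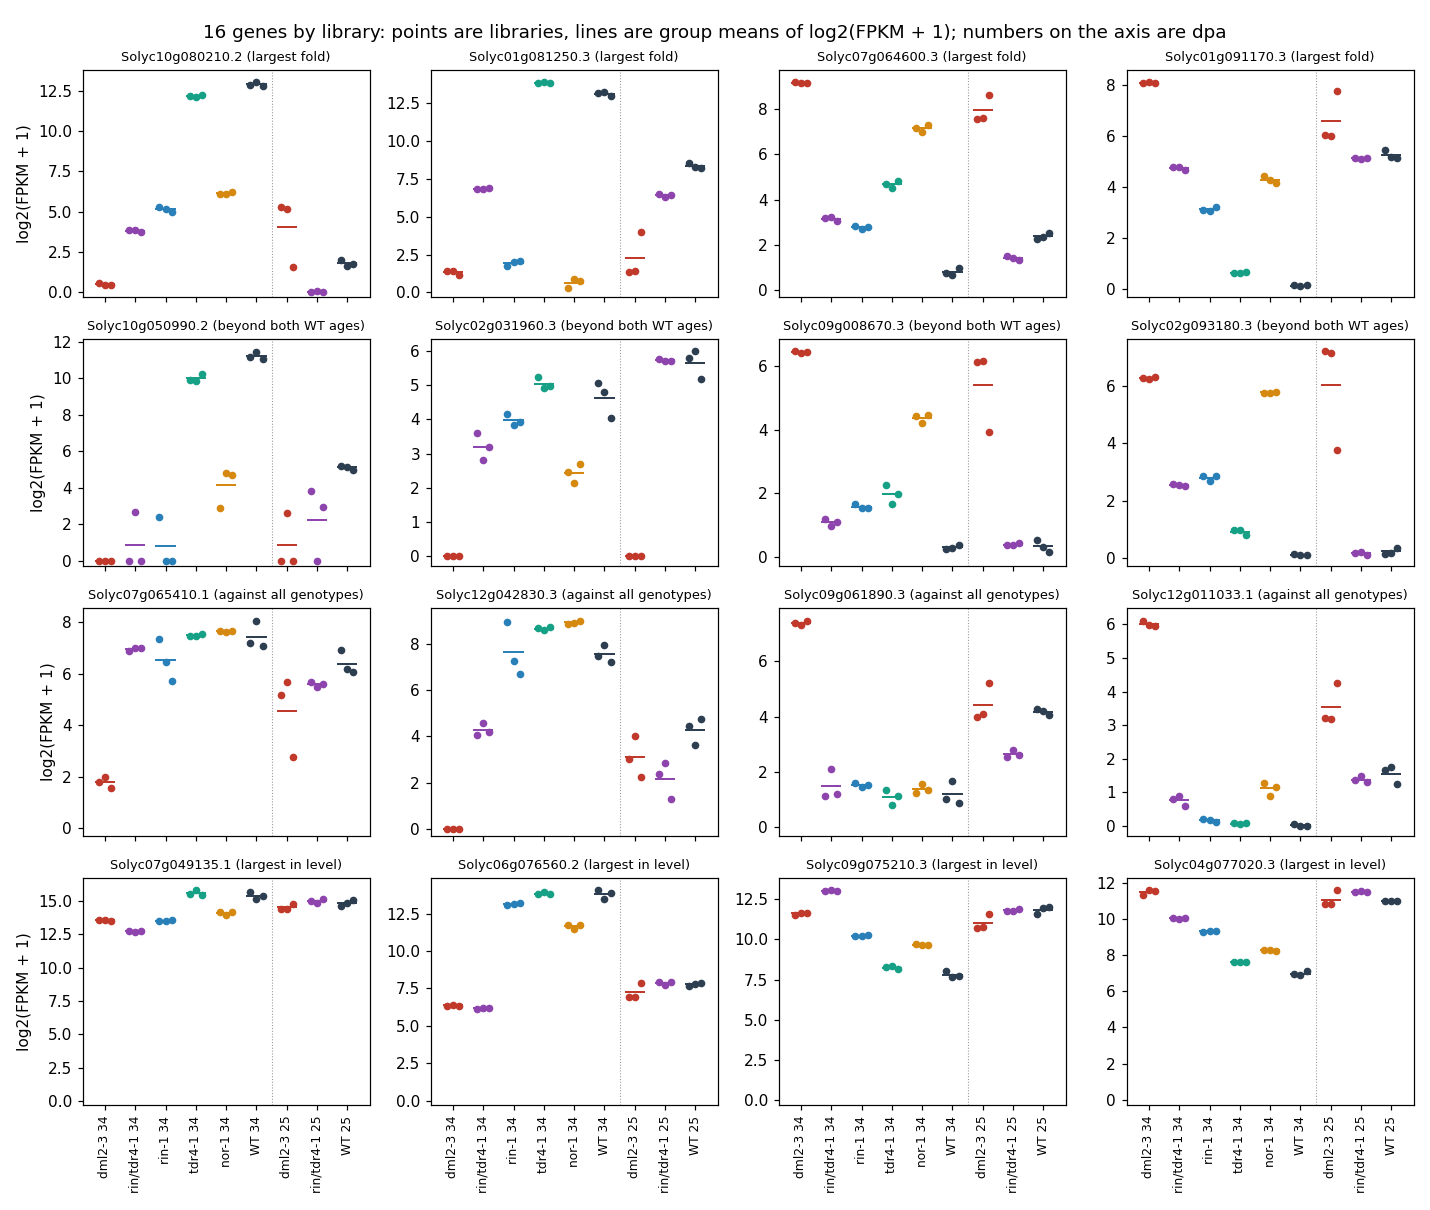
Each panel is 1 of 16 genes, each point 1 library and each line a group mean, on the log2(FPKM + 1) scale, with 34 dpa left and 25 dpa right of the dotted line. In every panel the 3 dml2-3 libraries at 34 dpa lie together and apart from the 3 WT libraries at 34 dpa. The genes were chosen for large differences without overlap, so this separation follows from the choice. Replicate 3 of dml2-3 at 25 dpa often lies away from the other 2.

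The most abundant transcripts made up less of the total in dml2-3 than in WT. The 100 most abundant genes of each library held 22.0%, 23.2% and 22.9% of all FPKM in dml2-3, against 44.3%, 40.8% and 42.8% in WT. The groups did not overlap, and the difference of -19.9 percentage points had the smallest p that 3 against 3 libraries allow (two-sided exact permutation test, p = 0.1). The 10 most abundant genes held 9.61% ± 0.493 in dml2-3 and 21.7% ± 1.49 in WT (SD, n = 3 each, exact permutation p = 0.1). In turn, more genes reached 1 FPKM in dml2-3, at 16870, 16742 and 16650, against 15130, 15315 and 15117 in WT (exact permutation p = 0.1). The mean excess of 1567 genes came to 979 with size factors.

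**Figure D3:**
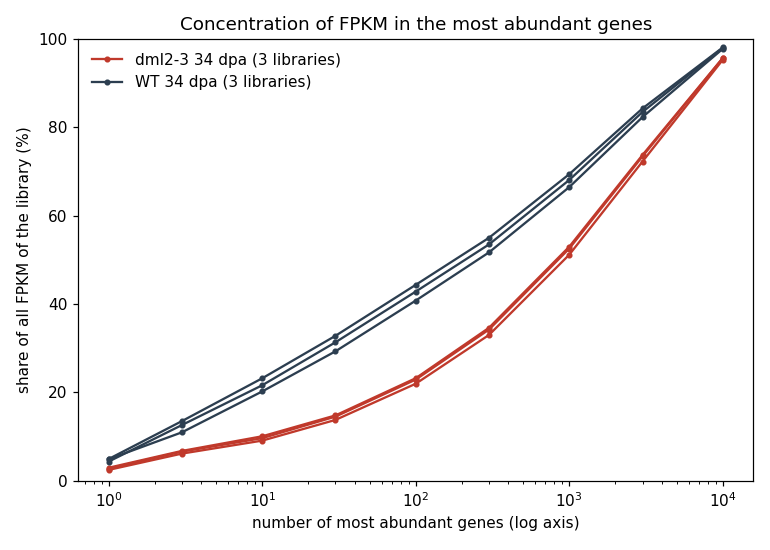
The share of all FPKM of a library held by its most abundant genes is plotted against the number of genes on a log axis, with 1 line for each of the 3 dml2-3 and 3 WT libraries at 34 dpa. At 100 genes the dml2-3 lines lie between 22.0% and 23.2% and the WT lines between 40.8% and 44.3%.

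The lower genes held a large part of the FPKM of WT fruit. Together the 1275 lower genes held 6.55% ± 0.107 of all FPKM in dml2-3 and 41.9% ± 0.538 in WT, and the 3254 higher genes held 23.7% ± 0.214 in dml2-3 and 3.46% ± 0.171 in WT. These shares describe genes chosen on the same libraries and carry no test. Of the 80 genes whose mean over all 27 libraries was 1000 FPKM or more, 47.5% were lower and 12.5% higher in dml2-3. Among the 9457 genes between 10 and 100 FPKM, 6.75% were lower and 16.5% higher, and among the 6276 genes between 1 and 10 FPKM, 4.99% were lower and 21.1% higher. Of the 100 most abundant genes of WT, 71 were lower and 0 higher in dml2-3; of the 100 most abundant genes of dml2-3, 42 were higher and 5 lower. Both lists were taken from the libraries compared, which favours these directions.

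In FPKM, the largest fall was that of Solyc07g049135.1 on chromosome 7. It had 11882, 12379 and 11354 FPKM in dml2-3 and 51638, 36366 and 43358 FPKM in WT, or 1.35% of all FPKM in dml2-3 and 4.32% in WT. The log2 difference of -1.87 (SE 0.19, limma adjusted p = 1.04e-08) was modest beside the others, and it came to -2.38 with size factors and -1.01 with quantile scaling. Fruit of 25 dpa averaged 23681 ± 4253 FPKM in dml2-3, against 30165 ± 5035 FPKM in WT. The mutant rin-1 stood at 11852 ± 419 FPKM, from which dml2-3 did not differ detectably (difference 0.0021 on the log2 scale with an SE of 0.19, limma adjusted p = 0.999).

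Solyc06g076560.2 on chromosome 6 lay far below WT in dml2-3. It had 80.3, 82.7 and 80.5 FPKM in dml2-3, against 17031, 11574 and 14970 FPKM in WT. The log2 difference came to -7.45 with an SE of 0.17 (limma adjusted p = 8.58e-20). The double mutant rin/tdr4-1 was also low, at 71.3 ± 2.01 FPKM (difference 0.18 on the log2 scale with an SE of 0.17, limma adjusted p = 0.353), whereas rin-1 had 9122 ± 260 FPKM and tdr4-1 had 14742 ± 705 FPKM. At 25 dpa dml2-3 had 120, 122 and 229 FPKM and WT 203, 223 and 228 FPKM, with replicate 3 of dml2-3 among the WT values. The difference there was -0.53 on the log2 scale with an SE of 0.17 (limma adjusted p = 0.0102), and -0.84 without that replicate (limma adjusted p = 9.81e-07). From 25 to 34 dpa the gene changed by 6.04 on the log2 scale in WT and by -0.88 in dml2-3 (-0.57 without that replicate).

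The 2 largest rises in FPKM were those of genes that WT fruit turned down between the ages. Solyc09g075210.3 on chromosome 9 had 2947, 3222 and 3216 FPKM in dml2-3 and 260, 203 and 210 FPKM in WT. The log2 difference came to 3.80 with an SE of 0.15 (limma adjusted p = 1.99e-15). WT fruit at 25 dpa had 3674 ± 577 FPKM, from which dml2-3 at 34 dpa did not differ detectably (-0.22, SE 0.15, limma adjusted p = 0.226, or 0.045 without replicate 3 of dml2-3 at 25 dpa). Solyc04g077020.3 on chromosome 4 had 2570, 3083 and 2958 FPKM in dml2-3 and 124, 117 and 137 FPKM in WT (4.50, SE 0.13, limma adjusted p = 4.38e-18), and 2045 ± 19.7 FPKM in WT at 25 dpa. The mutant thus lay near the level of WT at 25 dpa for both genes, slightly above it for the second (0.48, SE 0.13, limma adjusted p = 0.00256). The other mutants at 34 dpa ranged from 301 ± 20.4 FPKM in tdr4-1 to 8217 ± 183 FPKM in rin/tdr4-1 for Solyc09g075210.3. For Solyc04g077020.3 they ranged from 197 ± 0.341 FPKM in tdr4-1 to 1052 ± 14.8 FPKM in rin/tdr4-1.

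Whether the mutant at 34 dpa resembled younger WT fruit was addressed by comparing dml2-3 at 34 dpa with WT at 25 dpa, which leaves out the WT libraries at 34 dpa. Of the tested genes 1018 (5.38%) were higher and 1776 (9.39%) lower in the mutant at 2-fold or more under both scalings, 2794 in all (14.8%), against the 4529 (24.0%) that separated it from WT of its own age. Of the 1275 genes lower than in WT at 34 dpa, 67.9% were within 2-fold of WT at 25 dpa, 309 were lower than at 25 dpa too and 52 were higher. Of the 3254 higher genes, 63.6% were within 2-fold of WT at 25 dpa, 706 were higher than at 25 dpa too and 412 were lower. Over all tested genes 83% were within 2-fold. The dml2-3 libraries served both to choose the genes and in this comparison, so these counts are descriptive.

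**Figure D4:**
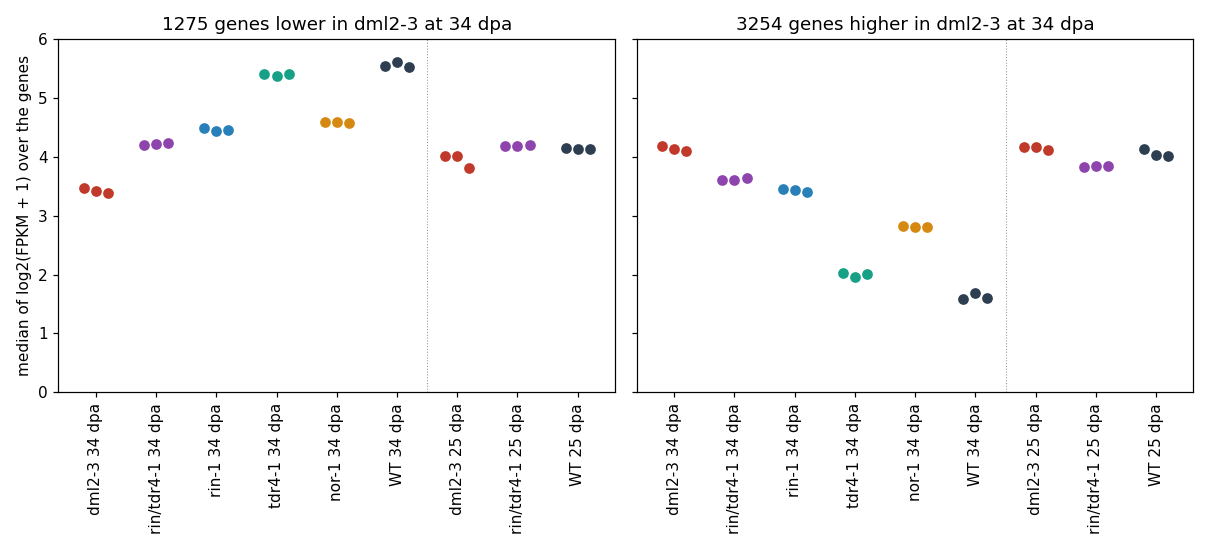
Each point is the median of log2(FPKM + 1) in 1 library, over the 1275 lower genes on the left and the 3254 higher genes on the right, by group with 34 dpa left of the dotted line. For the lower genes dml2-3 at 34 dpa lies at 3.38 to 3.47, under all other groups, and WT at 34 dpa at 5.52 to 5.61. For the higher genes dml2-3 lies at 4.10 to 4.18 at 34 dpa and WT at 34 dpa at 1.59 to 1.69. The dml2-3 values there are near those at 25 dpa of dml2-3 itself, at 4.11 to 4.17, and of WT, at 4.02 to 4.14.

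Between 25 and 34 dpa the mutant itself had 2269 genes called higher and 4118 called lower at 34 dpa by limma at an adjusted p under 0.05, while WT had 2899 higher and 11656 lower. This split, too, depended on the scaling. With size factors the mutant had 3102 genes higher and 3133 lower, and WT had 6799 higher and 7316 lower. At 2-fold or more under both scalings, 217 genes (1.15%) were higher and 615 (3.25%) lower in dml2-3 at 34 dpa than in dml2-3 at 25 dpa. Without replicate 3 at 25 dpa these counts were 342 and 940. WT fruit had 1030 (5.45%) higher and 3706 (19.6%) lower over the same interval. The dml2-3 difference from WT at 34 dpa minus that at 25 dpa was tested itself and called in 13073 genes (69.1%), 9858 of them with a positive and 3215 with a negative change, or 9899 and 3841 without replicate 3 of dml2-3 at 25 dpa. With size factors and all libraries, 6664 genes had a positive and 6154 a negative change. At 2-fold or more under both scalings the change was positive in 3634 genes (19.2%) and negative in 1485 (7.85%). Without replicate 3 these were 3803 and 1693.

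At 25 dpa, in libraries other than those that chose them, the lower genes went both ways. Of the 1275, 182 (14.3%) had a lower and 132 (10.4%) a higher level in dml2-3 at 25 dpa, set against WT of that age, with a median log2 difference of -0.087. The 3254 higher genes comprised 539 (16.6%) higher and 454 (14.0%) lower at 25 dpa, with a median of 0.083. Over all tested genes 5.91% were higher and 7.20% lower at that age. Without replicate 3 of dml2-3 at 25 dpa, the counts were 205 lower and 172 higher for the first list and 603 higher and 542 lower for the second, against 1415 higher and 1648 lower of all genes tested.

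Genes whose level in dml2-3 at 34 dpa lay outside that of WT at either age numbered 706 higher (3.73% of tested genes) and 309 lower (1.63%). The smaller of their 2 log2 differences had a median of 1.61 among the higher and 1.54 among the lower genes, and was 4 or more for 26 and 8 genes. At 25 dpa many of them differed already. Of the 706 higher genes 426 (60.3%) were higher in dml2-3 at 25 dpa too and 2 lower, and of the 309 lower genes 164 (53.1%) were lower and 2 higher. The shares over all tested genes at that age were 5.91% higher and 7.20% lower, or 7.48% and 8.72% without replicate 3 of dml2-3. Without that replicate, 432 of the 706 were higher and 179 of the 309 lower. WT at 25 dpa served both to choose these genes and as the control at that age, so no test is drawn from these counts.

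Solyc10g050990.2 on chromosome 10 was listed at 0 in all 3 dml2-3 libraries, against 2349, 2836 and 2158 FPKM in WT (limma adjusted p = 1.37e-10). WT at 25 dpa had 36.1, 34.9 and 31.1 FPKM (limma adjusted p = 3.5e-05 against dml2-3 at 34 dpa). It was listed at 0 in 2 of the 3 libraries each of dml2-3 at 25 dpa, rin/tdr4-1 at 34 dpa and rin-1, with 5.20, 5.30 and 4.24 FPKM in the remaining library of each, whereas tdr4-1 had 973, 924 and 1219 FPKM. A level of 0 is as the files list it and, without read numbers, has no lower limit.

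Solyc02g031960.3 on chromosome 2 was listed at 0 in all 6 libraries of dml2-3, those of 25 dpa included. WT had 32.5, 27.1 and 15.4 FPKM at 34 dpa (limma adjusted p = 3.92e-14) and 54.2, 62.8 and 35.4 FPKM at 25 dpa (limma adjusted p = 7.08e-15 for dml2-3 at 34 dpa against it). Every library of the other mutants at 34 dpa expressed it, at group means between 4.48 ± 1.02 FPKM in nor-1 and 32.3 ± 4.02 FPKM in tdr4-1.

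Among the rises outside both WT ages, Solyc09g008670.3 on chromosome 9 had 88.0, 85.2 and 86.1 FPKM in dml2-3, against 0.18, 0.22 and 0.30 FPKM in WT at 34 dpa (difference 6.15 on the log2 scale with an SE of 0.34, limma adjusted p = 5.05e-13). WT at 25 dpa was as low, at 0.263 ± 0.166 FPKM (log2 difference 6.12, limma adjusted p = 2.49e-12). The mutant expressed it at 25 dpa too, at 69.5, 71.2 and 14.4 FPKM, where replicate 3 was the low one. In nor-1 it stood at 20.9, 17.7 and 21.3 FPKM, and in the remaining mutants at 34 dpa at 1.13 to 2.98 FPKM on average.

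Solyc02g093180.3 on chromosome 2 had 76.8, 74.5 and 79.4 FPKM in dml2-3 and 0.09, 0.07 and 0.07 FPKM in WT at 34 dpa (difference 6.18 on the log2 scale with an SE of 0.51, limma adjusted p = 3.34e-10). WT at 25 dpa had 0.17 ± 0.0964 FPKM, and dml2-3 at 25 dpa had 147, 141 and 12.6 FPKM. Of the other mutants nor-1 came nearest to dml2-3, at 53.9 ± 0.983 FPKM. The difference of 0.50 on the log2 scale from nor-1 was not called with all libraries in the fit (SE 0.51, limma adjusted p = 0.379). It was called without replicate 3 of dml2-3 at 25 dpa (limma adjusted p = 3.73e-07). The remaining mutants at 34 dpa lay between 0.877 ± 0.118 FPKM in tdr4-1 and 5.94 ± 0.445 FPKM in rin-1, above WT of that age.

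Some genes were listed at 0 in every library of 1 genotype. Over the whole table of 34075 genes, 37 were listed at 0 in all 3 dml2-3 libraries and had at least 1 FPKM in all 3 WT libraries at 34 dpa, and 88 were the other way round. With a floor of 10 FPKM these were 13 and 10 genes. On average 1567 more genes reached 1 FPKM in dml2-3 than in WT at 34 dpa, and 1177 more reached 0.1 FPKM. Whether the imbalance of 88 to 37 goes beyond this general difference was not tested. Of the 37, 18 were listed at 0 in all dml2-3 libraries at 25 dpa, 9 reached 1 FPKM in all WT libraries at 25 dpa, and 4 reached it in every library of the other 4 mutants at 34 dpa. Of the 88, 48 reached 1 FPKM in all dml2-3 libraries at 25 dpa and 38 in all WT libraries at 25 dpa, while 3 were listed at 0 in every library of the other 4 mutants.

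The position of dml2-3 among the ripening mutants was addressed by direct contrasts at 34 dpa, which do not pass through the shared WT libraries. At 2-fold or more under both scalings, dml2-3 differed from rin/tdr4-1 in 2840 genes (15.0%), from rin-1 in 3152 (16.7%), from nor-1 in 3388 (17.9%), from tdr4-1 in 4018 (21.3%) and from WT in 4529 (24.0%). It differed from its own younger fruit in 832 (4.40%), 217 higher and 615 lower, or in 342 higher and 940 lower without replicate 3 of dml2-3 at 25 dpa. The order of the mutants describes counts from the same dml2-3 libraries, and differences between the counts were not tested.

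**Figure D5:**
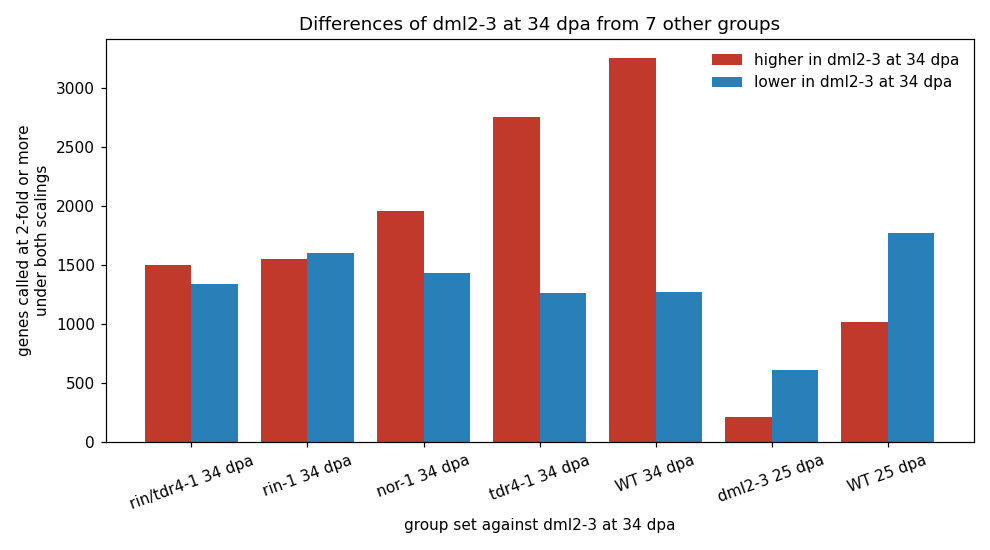
Bars count the genes that differed at 2-fold or more with and without size factors between dml2-3 at 34 dpa and each of 7 other groups, with genes higher and lower in dml2-3 at 34 dpa side by side. The bars are shortest against dml2-3 at 25 dpa, at 217 higher and 615 lower (342 and 940 without replicate 3 of that group), and the rises are most numerous against WT at 34 dpa, at 3254.

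In 466 genes (2.46%) dml2-3 was higher than each of the 5 other genotypes at 34 dpa, and in 185 genes (0.979%) it was lower than each, called at 2-fold or more under both scalings in all 5 direct contrasts. The smallest of the 5 log2 differences had a median of 1.68 among the higher and 1.59 among the lower genes. Of the 466 higher genes 328 (70.4%) lay above both WT ages, against 21.7% of the 3254 higher genes and 3.73% of all genes tested. Of the 185 lower genes 108 (58.4%) lay below both, against 24.2% of the 1275 lower genes and 1.63% of all genes tested. These genes had been chosen as different from WT at 34 dpa, so the condition was met in part by the choice.

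Solyc07g065410.1 on chromosome 7 led the lower genes of this kind. It had 2.42, 3.00 and 1.93 FPKM in dml2-3 and 145, 266 and 135 FPKM in WT (difference -5.67 on the log2 scale with an SE of 0.49, limma adjusted p = 7.4e-10). The other mutants ranged from 101 ± 57.2 FPKM in rin-1 to 200.2 ± 3.78 FPKM in nor-1, and the smallest direct difference was -4.74 against rin-1 (limma adjusted p = 2.45e-08). At 25 dpa dml2-3 had 35.4, 50.8 and 5.85 FPKM and WT 119, 71.2 and 66.1 FPKM.

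Solyc12g042830.3 on chromosome 12 was listed at 0 in all 3 dml2-3 libraries. WT had 180, 251 and 148 FPKM (limma adjusted p = 2.87e-12), nor-1 had 488 ± 21.6 FPKM and tdr4-1 had 404 ± 19.0 FPKM. In rin-1 the libraries differed widely among themselves, at 498, 153 and 102 FPKM, and rin/tdr4-1 was the lowest of the other mutants at 18.4 ± 3.71 FPKM. Every library of the other genotypes at 34 dpa thus expressed the gene.

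The leading rise of this kind was Solyc09g061890.3 on chromosome 9, with 165, 159 and 175 FPKM in dml2-3, against 1.05, 2.16 and 0.85 FPKM in WT (difference 6.19 on the log2 scale with an SE of 0.27, limma adjusted p = 5.13e-15). The other mutants lay with WT, between 1.16 ± 0.393 FPKM in tdr4-1 and 1.94 ± 1.18 FPKM in rin/tdr4-1. At 25 dpa the gene did not differ detectably between the genotypes, at 14.7, 16.1 and 36.3 FPKM in dml2-3 and 18.2, 17.5 and 15.8 FPKM in WT (0.25, SE 0.27, limma adjusted p = 0.455, or -0.15 and 0.58 without replicate 3 of dml2-3). The change of the difference with age was called (5.95, SE 0.38, limma adjusted p = 8.19e-12, or 6.34 without that replicate).

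Solyc12g011033.1 on chromosome 12 had 68.2, 62.0 and 61.2 FPKM in dml2-3, while WT had 0.04 FPKM in 1 library and was listed at 0 in the other 2 (difference 5.997 on the log2 scale with an SE of 0.19, limma adjusted p = 3.73e-17, or 9.16 with a pseudocount of 0.1). The other mutants had at most 1.18 ± 0.300 FPKM, in nor-1. Unlike the preceding gene, it was higher in dml2-3 at 25 dpa as well, at 8.18, 8.02 and 18.1 FPKM against 2.19, 2.33 and 1.39 FPKM in WT (1.99, SE 0.19, limma adjusted p = 2.18e-08, or 1.63 without replicate 3 of dml2-3).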

How the data were processed

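Members and groups were taken from sample titles, and 0 value columns of the table lacked a sample. The authors deposited FPKM values, 1 column per library. The submitters' processing notes list STAR 2.5.4b, Trimmomatic, DESeq2 and RSEM without role or order, and neither genome build nor annotation is stated in the labels. FPKM is relative, so that a few abundant transcripts lower all others. Low values showed no steps of single reads (the commonest ratio held at most 3.69% of low genes over 15 pairs of libraries), so no count test was run and depth is unknown. None of the identifiers matched the 41476 genes of the RefSeq table (assembly SLM_r2.1), with 0 matches with and 0 without version numbers. Gene lists and marker checks were therefore not run.

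A gene was tested if 3 or more of the 27 libraries had 1 FPKM or more. Values were log2(FPKM + 1), which understates changes of low genes. limma 3.58.1 in R 4.3.3, with a trend of variance on expression, was fitted with 1 mean for each of 9 groups, and p-values were adjusted by Benjamini-Hochberg over all 18906 genes with a threshold of 0.05. Size factors were medians of ratios. Named genes had, in their comparison, the largest absolute log2 or FPKM difference among genes that differed 2-fold under both scalings, had 10 FPKM or more on average in 1 group and did not overlap, 2 in each direction per comparison, passing over genes already named. For conjunctions of contrasts the smallest difference ranked. Members, lists and tests were chosen with earlier results of these data known. Alternatives were a pseudocount of 0.1, other filters, other scalings, fewer libraries and a replicate block.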

Additional observations from a re-analysis of the deposited data

Results flagged for a closer look

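The difference between dml2-3 and WT was itself tested for a change between 34 and 25 dpa. It changed in 13073 genes (69.1%), 9858 positive and 3215 negative, by limma at an adjusted p under 0.05. Genes of the report are given here where this change passed the test. A value is the log2 difference of dml2-3 minus WT at 34 dpa less that at 25 dpa, so a negative one means that dml2-3 was lower relative to WT at 34 dpa than at 25 dpa.

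Among lower genes the log2 change was -14.6 for Solyc10g080210.2, -5.72 for Solyc01g081250.3, -3.84 for Solyc07g065410.1, -1.52 for Solyc07g049135.1 and -6.91 for Solyc06g076560.2. Solyc10g080210.2 was higher in dml2-3 than in WT at 25 dpa (38.8, 35.3 and 1.99 FPKM against 3.07, 2.08 and 2.43 FPKM), so its difference changed sign. Among higher genes the change was 2.79 for Solyc07g064600.3, 6.58 for Solyc01g091170.3, 5.95 for Solyc09g061890.3, 4.01 for Solyc12g011033.1, 4.63 for Solyc09g075210.3 and 4.42 for Solyc04g077020.3.

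For genes listed at 0 in a group only the limma adjusted p is given. It was 3.56e-05 for Solyc10g050990.2, 0.00724 for Solyc02g031960.3 and 2.32e-08 for Solyc12g042830.3. The second of these was listed at 0 in dml2-3 at both ages, and its call ended with size factors (adjusted p = 0.215). The remaining 2 genes of the report, Solyc09g008670.3 and Solyc02g093180.3, did not pass (adjusted p = 0.0591 and 0.671). Without replicate 3 of dml2-3 at 25 dpa, the changes that had passed all kept their direction and their call. The log2 values were then -15.85 for Solyc10g080210.2, -4.85 for Solyc01g081250.3, -4.73 for Solyc07g065410.1, -1.38 for Solyc07g049135.1, -6.61 for Solyc06g076560.2, 3.13 for Solyc07g064600.3, 7.16 for Solyc01g091170.3, 6.34 for Solyc09g061890.3, 4.37 for Solyc12g011033.1, 4.90 for Solyc09g075210.3 and 4.67 for Solyc04g077020.3. Solyc02g093180.3 then passed with a change of -0.78 (limma adjusted p = 2.87e-07).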

How the results depend on the processing

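All 16 genes of the report kept their direction and their call between dml2-3 and WT at 34 dpa under all 15 alternatives, with adjusted p of at most 0.0281. Counts moved with the scaling. Against WT at 34 dpa, quantile scaling called 6460 genes higher and 7138 lower, and size factors 6568 lower. The change with age called 5925 genes higher and 6648 lower with quantile scaling, and 6154 lower with size factors. Called at 2-fold or more under 1 scaling alone, 2257 genes were lower with size factors, 2281 lower with quantile scaling and 5961 higher with TPM, and 787 genes were higher than in all other genotypes with TPM; the cause was not tested. Genes lower than in WT at both ages numbered 514 with a pseudocount of 0.1, on which the log2 difference of low genes is larger by construction. The 10 and the 1000 most abundant genes gave differences in share of -12.1 and -15.7 percentage points. The excess of genes past a floor was 979 with size factors at 1 FPKM, 1859 at 5 FPKM and 1177 at 0.1 FPKM. Without 1 library at a time, the higher and lower genes called at 2-fold numbered 3235 to 3293 and 1246 to 1312, and the share of the 100 most abundant genes differed by -20.9 to -19.1 percentage points. Same-numbered libraries of dml2-3 and WT at 34 dpa deviated together at r of -0.0044 to 0.038. With 1 such value per number, this cannot decide whether equal numbers pair libraries. With a replicate block 10765 genes were higher and 3396 lower, and 3254 and 1276 at 2-fold under both scalings. Only replicate 3 of dml2-3 correlated best with its own number.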

Other observations

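The identifiers of the genes changed in dml2-3 at 34 dpa were spread over the numbered chromosomes. The 76 tested genes with chromosome number 0 in their identifier, 3 higher and 0 lower, are left out of the ranges that follow. The share of tested genes that were lower ran from 5.65% on chromosome 11 to 7.78% on chromosome 9, and the share that were higher from 15.3% on chromosome 1 to 19% on chromosome 12. The numbers of a Solyc identifier give its chromosome and its order along it. The next tested gene in that order was looked up as the neighbour, and untested genes between were passed over. Identifiers numbered from 150000 up were left out. Of the 1264 lower genes with such a neighbour, 13.1% had a neighbour that was also lower, against 6.75% lower among all genes so placed. Of the 3242 higher genes with a neighbour, 21.4% had one that was also higher, against 17.3%. Neighbours can be near-identical copies between which reads are split, which was not examined, and no test was made.

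Runs of at least 3 genes that were neighbours among the tested genes comprised 23 runs with 76 lower genes and 125 runs with 429 higher genes. The longest run of lower genes, singled out after its values were seen, held 7 genes from Solyc07g054750.1 to Solyc07g054810.1 on chromosome 7. Their FPKM summed to 347 in dml2-3 and 4641 in WT at 34 dpa, and to 414 in dml2-3 and 492 in WT at 25 dpa, with log2 differences at 34 dpa between 2.33 and 7.46 in size. The longest run of higher genes held 8 genes from Solyc02g087770.3 to Solyc02g087870.3 on chromosome 2. Their FPKM summed to 257 in dml2-3 and 28.1 in WT at 34 dpa, and to 215 in dml2-3 and 351 in WT at 25 dpa.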
